A study of Mus musculus with 16 samples.

Results

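The effect of dexamethasone (Dex), a synthetic glucocorticoid, was measured in wild type (WT) bone-marrow-derived macrophages (BMDM) that had been activated with LPS, a bacterial cell wall component. All WT libraries carrying the LPS and LPS + Dex labels were taken, which gave 6 of the 16 RNA-seq libraries of the study, 3 from LPS-treated and 3 from LPS + Dex-treated cells. Each of the 3 WT mice gave 1 library of each kind, so the libraries were compared mouse by mouse, and all 9614 genes of the table were tested, whether LPS induced them or not. The mice, which the labels number, are called A, B and C here and were C57BL/6 males of 8 weeks with the genotype LysM-Cre:NELF-B wt/wt. The WT cells thus carry the Cre recombinase, which is expressed from a myeloid promoter, without a floxed allele. Both groups were exposed for 1 hr to 10 ng/ml LPS, and the LPS + Dex group also to 100 nM Dex during the same hour. A group with Dex alone was not analysed here. The rest of the study consisted of untreated WT libraries and of libraries from mice of genotype LysM-Cre:NELF-B fl/fl, called KO here, under the same treatments, and of these the KO libraries are used below for comparison.

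Dex acts through the glucocorticoid receptor (GR, encoded by Nr3c1), a transcription factor that waits in the cytoplasm in a complex with chaperones and moves to the nucleus when it binds its ligand. There it activates genes from palindromic response elements in the DNA, and it lowers the expression of many inflammatory genes that NF-kB and AP-1 activate. In macrophages LPS is sensed by TLR4, which within minutes switches on NF-kB and MAP kinase signalling and with them genes for cytokines, chemokines and transcription factors. Products of GR-activated genes such as Tsc22d3 (GILZ) and Dusp1, a phosphatase of MAP kinases, are themselves inhibitors of these signals.

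Dex lowered and raised comparable numbers of genes within 1 hr, and the increases were the larger changes. Levels are given as log2 CPM, the read count scaled to the size of the library and log-transformed, and a Dex change is the log2 CPM with LPS + Dex minus that with LPS in the same mouse. At an adjusted p under 0.1 in limma's moderated test with the mouse as a block, 715 of 9614 genes were lower with Dex (7.44% of genes tested) and 571 were higher (5.94%). The direction was the same in all 3 mice for 709 of the 715 and 570 of the 571. Most of these changes were small, with a median of -0.25 among the lower and 0.30 among the higher genes, against -0.01 over all genes. Changes over 1.3-fold were found for 209 lower genes (2.17% of genes tested) and 229 higher genes (2.38%). Over 2-fold there were 29 lower and 50 higher genes, and over 4-fold 3 and 9. The levels of the 3 LPS libraries did not overlap those of the 3 LPS + Dex libraries for 224 of the 715 lower genes (31.3%) and 222 of the 571 higher genes (38.9%), against 5.97% of all genes.

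**Figure D1:**
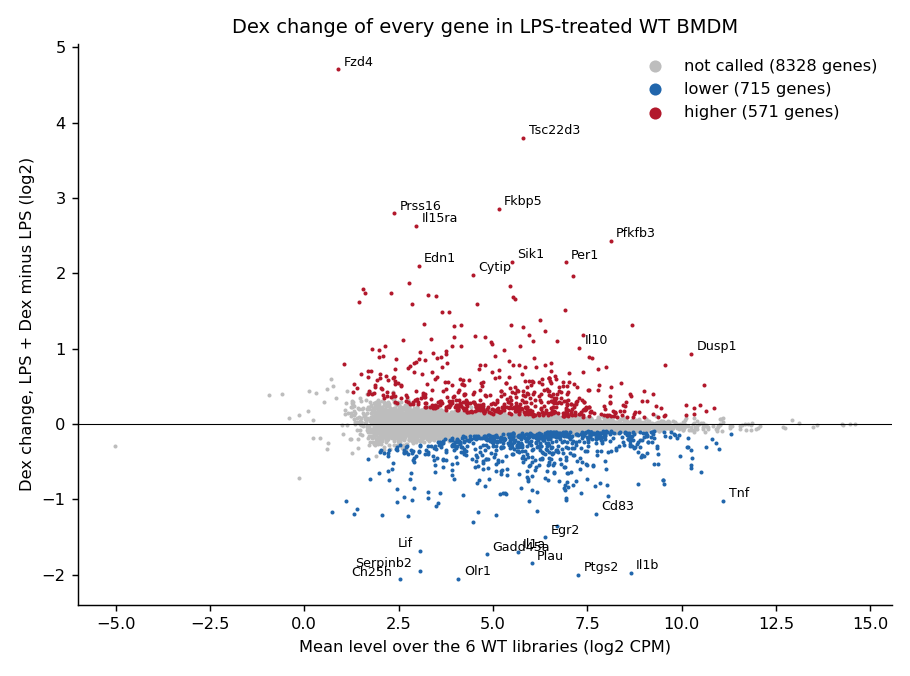
Dex change of each of the 9614 genes (y axis, log2, mean of 3 mice) against its mean level over the 6 WT libraries (x axis, log2 CPM), with genes called lower in blue, called higher in red and not called in grey. The named increases reach 4.71 for Fzd4, whereas the decreases end near -2.06 for Ch25h, and called genes lie at low and at high levels.

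The pairing by mouse carried these counts. The SD of the LPS level between the 3 mice had a median of 0.17 over all genes, and the SD of the Dex change between the same mice had a median of 0.08. In a fit without the mouse, 28 genes were called lower and 44 higher, and each of these was also among the 715 and the 571. The 6 libraries held 29800000 to 43900000 reads on these genes, as recovered from the steps of the deposited values, and none of the called genes had a library with 3 reads or fewer. Macrophage genes were together present at high levels, and their summed level differed little between groups. Of 32 genes of macrophage lineage and phagocytosis that were measured, 4 were called lower (12.5%, against 7.44% of all genes) and 7 higher (21.9%, against 5.94%). By over 1.3-fold 1 was lower and 0 higher. Their summed level was 79450 to 87850 CPM with LPS and 78410 to 90440 CPM with LPS + Dex. Csf1r, the receptor for the growth factor of these cells, had a mean of 11.58 log2 CPM with LPS and 11.52 with LPS + Dex (change -0.07, limma adjusted p = 0.317). The phagocyte gene Mpeg1 had 12.09 and 12.07 (change -0.02, limma adjusted p = 0.856). Lyz2, the locus that drives LysM-Cre, was not at a high level, with 4.90 and 4.71 log2 CPM against a median of 5.08 over all genes. Only unique reads were tallied, and the effect of this on the Lyz2 value was not tested. Of the 16 reference genes only Gapdh was called, with a change of -0.12 (limma adjusted p = 0.0675).

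Markers of other cells were few and mostly did not move with Dex. Of 13 neutrophil markers 4 were measured, with a summed level of 205 to 403.9 CPM with LPS and 195.6 to 364.5 CPM with LPS + Dex. Of these Csf3r fell by 0.14 and S100a8 rose by 0.29 (limma adjusted p = 0.0153 and 0.0489). Of 8 B cell markers 3 were measured, at 130.5 to 229.4 CPM with LPS and 123.1 to 221.5 CPM with LPS + Dex, and Blnk was called, with a change of -0.11. Of 10 T and NK cell markers only Cd4 was measured, at 8.77 to 57.8 and 7.45 to 59.2 CPM, and of 7 dendritic cell markers only Ccr7, at 0.556 to 5.67 and 1.05 to 5.28 CPM. The 5 stromal and endothelial markers measured summed to 85.3 to 161.9 CPM and 113.2 to 170.5 CPM, and the smallest p among them was that of Col3a1 (change 0.22, limma adjusted p = 0.388). No mast cell or erythroid marker was in the table. Mouse C stood apart within both groups for some of these. Ighm was at 6.00 and 5.99 log2 CPM in its 2 libraries and at 2.09 to 2.47 in those of the other mice, and its Mmp9 was at 7.16 and 6.98 against 4.01 to 4.39. The labels put the same tag, whose meaning they do not state, on the untreated library of mouse C and on the libraries of 1 KO mouse. In the LPS and LPS + Dex libraries of that KO mouse Ighm was at 6.04 and 5.98 and Mmp9 at 7.43 and 7.64, against 2.47 to 3.14 and 4.12 to 4.72 in the other KO mice. The part of such cells in the Dex changes was not tested. In RNA from whole cultures, fewer cells of a type and less RNA per cell cannot be told apart.

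The strongest decreases were in genes of acute inflammation: the sterol hydroxylase Ch25h, the scavenger receptor Olr1, the prostaglandin synthase Ptgs2, the cytokines Il1b, Il1a and Lif, and Serpinb2 and Plau of the plasminogen system. The stress gene Gadd45a and the transcription factor Egr2 completed the 10 largest. In mice A, B and C, Il1b was at 9.56, 9.48 and 9.87 log2 CPM with LPS and at 7.62, 7.59 and 7.78 with LPS + Dex. The groups were well separated, and the change of -1.97 ± 0.039 (standard error) corresponded to a 3.93-fold lower level (limma adjusted p = 1.01e-10). Il1a, encoded beside Il1b on chromosome 2, was at 6.14, 6.66 and 6.71 with LPS and at 4.61, 5.10 and 4.72 with LPS + Dex. It too did not overlap, with a change of -1.70 ± 0.075 (limma adjusted p = 5.35e-08). Ptgs2, which encodes the inducible cyclooxygenase COX-2, was at 8.14, 8.36 and 8.30 with LPS and at 6.27, 6.31 and 6.21 with LPS + Dex. This was a 4.0-fold decrease in cells whose replicates differed little within either group (change -2.0 ± 0.043, limma adjusted p = 1.58e-10).

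Ch25h, the enzyme that makes 25-hydroxycholesterol, showed how a change could be steady while the level was not. Its levels were 4.66, 3.05 and 2.96 log2 CPM with LPS and 2.55, 0.95 and 0.99 with LPS + Dex, so that mouse A was higher than the others in both groups. The change in the same mice was -2.11, -2.10 and -1.97 (mean -2.06, limma adjusted p = 5.33e-08). Olr1, which takes up oxidised lipoprotein, was at 5.50, 5.53 and 4.30 with LPS and at 3.58, 3.64 and 1.96 with LPS + Dex, lowest in mouse C in both groups. Its groups did not overlap (change -2.05 ± 0.083, limma adjusted p = 3.02e-08). Plau, the urokinase that activates plasminogen, went from 6.69, 7.36 and 6.80 to 4.87, 5.59 and 4.85 (change -1.85 ± 0.043, limma adjusted p = 3.22e-10). Serpinb2, an inhibitor of urokinase, went down with it, from 3.74, 3.93 and 4.41 to 1.69, 1.97 and 2.58 (change -1.95 ± 0.080, limma adjusted p = 3.21e-08). Both sides of this protease system were thus 3.60-fold and 3.86-fold lower with Dex. Gadd45a changed by -1.73, Lif by -1.68 and Egr2 by -1.50, and in each of these 3 genes the decrease was largest in mouse C (-2.04, -2.06 and -1.88).

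**Figure D2:**
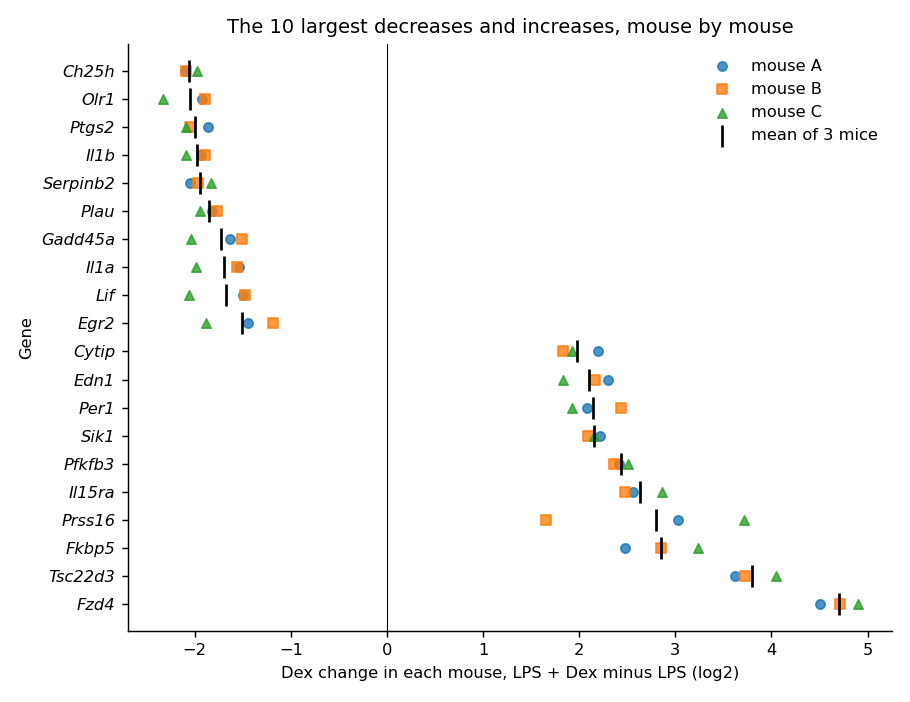
Dex change in each of the 3 WT mice (x axis, log2; circle mouse A, square mouse B, triangle mouse C, bar the mean) for the 10 largest decreases and the 10 largest increases (y axis). All 3 mice lie on the same side of 0 for each gene, and the widest spread is that of Prss16, from 1.66 to 3.72.

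The core promoters of 4 of these genes are shown because they hold a TATA box or an AP-1 site, the element that binds Fos and Jun proteins. RefSeq windows from 250 bases before to 50 bases after the start (GRCm38.p6, the assembly that mm10 names) were searched for motifs. A TATA box (TATAAA) was sought on the strand of the gene only, and the others on both strands. These were an AP-1 site (TGANTCA), a GR core motif (AGAACA), the palindromic GR element, a kB core for NF-kB (GGNNTTTCC) and a cAMP response element (TGACGTCA). The TATA box, the AP-1 site and the GR core motif occur in 4.11%, 5.05% and 11.9% of the 9476 windows of measured genes. A TATA box lay at -31 in Il1b, -32 in Il1a and -29 in Serpinb2, and an AP-1 site at -12 in Il1a, -94 in Serpinb2 and -60 in Olr1. Another window of Serpinb2, from a start farther downstream, puts its TATA box at -116 and its AP-1 site at -181. Among the other large decreases, Ch25h held a TATA box at -151 and a cAMP response element at -61, and Lif an AP-1 site at -228. The windows of Ptgs2, Gadd45a and Egr2 held no match, and no window was held for Plau. No kB core lay in any of these windows. Positions are those of the first base of the match from the start. The windows are chr2:129371090-129371389 (minus strand) for Il1b, chr2:129309923-129310222 (minus) for Il1a, chr1:107511173-107511472 (plus) for Serpinb2 and chr6:129507116-129507415 (minus) for Olr1. Capitals mark the matches.
Il1b: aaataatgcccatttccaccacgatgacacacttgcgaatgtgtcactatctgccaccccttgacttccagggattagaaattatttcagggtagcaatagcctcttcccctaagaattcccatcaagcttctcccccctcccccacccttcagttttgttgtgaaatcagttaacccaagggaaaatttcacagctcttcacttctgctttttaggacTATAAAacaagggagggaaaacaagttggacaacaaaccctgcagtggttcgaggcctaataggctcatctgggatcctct
Il1a: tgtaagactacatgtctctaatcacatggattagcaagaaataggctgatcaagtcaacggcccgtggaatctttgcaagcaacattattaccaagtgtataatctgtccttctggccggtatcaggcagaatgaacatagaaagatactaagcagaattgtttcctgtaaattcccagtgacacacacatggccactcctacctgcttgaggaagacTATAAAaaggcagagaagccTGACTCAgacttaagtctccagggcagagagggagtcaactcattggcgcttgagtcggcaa
Serpinb2: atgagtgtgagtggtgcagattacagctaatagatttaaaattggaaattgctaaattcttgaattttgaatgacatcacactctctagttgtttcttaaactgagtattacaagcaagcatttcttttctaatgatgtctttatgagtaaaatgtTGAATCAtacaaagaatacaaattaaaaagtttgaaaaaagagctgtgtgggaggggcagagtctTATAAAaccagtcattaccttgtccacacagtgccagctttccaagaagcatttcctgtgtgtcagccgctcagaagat
Olr1: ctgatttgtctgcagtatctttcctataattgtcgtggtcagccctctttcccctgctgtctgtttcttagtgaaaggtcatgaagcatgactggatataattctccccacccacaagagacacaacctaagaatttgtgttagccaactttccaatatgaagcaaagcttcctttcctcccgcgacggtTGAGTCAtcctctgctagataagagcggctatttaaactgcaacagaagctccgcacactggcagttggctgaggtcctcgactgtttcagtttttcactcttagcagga
Such matches describe the letters of these windows. Windows were held for 75.1% of the 209 genes over 1.3-fold lower, 78.2% of the 229 over 1.3-fold higher and 77.0% of all genes. The shares that follow leave out the other genes and were not tested. A kB core lay in 12.1% of windows of the lower, 7.36% of the higher and 6.29% of all genes. In the same order the GR core motif lay in 9.18%, 11.3% and 11.9%, and the TATA box in 11.6%, 6.06% and 4.11%. The AP-1 site lay in 8.7%, 8.66% and 5.05%.

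Cytokine genes had the lowest median change of the lists described here, at -0.82. Of 24 measured, 19 were called lower (79.2%, against 7.44% of all genes) and 2 higher (8.33%, against 5.94%). Their summed level was 5281 to 5988 CPM in the LPS libraries and 2872 to 3171 CPM in the LPS + Dex libraries. Tnf, an early product of activated macrophages, was at 11.60, 11.55 and 11.67 log2 CPM with LPS and at 10.70, 10.69 and 10.40 with LPS + Dex. The groups did not overlap, and the level was 2.02-fold lower (change -1.02 ± 0.064, limma adjusted p = 8.27e-07). Ifnb1, the interferon that LPS induces, changed by a similar amount (-1.20 ± 0.047, limma adjusted p = 2.48e-08), but its level varied more between mice. It was at 6.12, 4.93 and 5.96 with LPS and at 4.96, 3.65 and 4.80 with LPS + Dex, so the groups overlapped and only the pairing by mouse separated them. Il6, Il12b and Osm also fell, by 0.92, 1.09 and 0.82. The growth factor genes Pdgfb (-1.30), Areg (-1.21) and Vegfa (-0.81) were in the same list.

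Anti-inflammatory members of the list moved both ways. Il1rn encodes the antagonist of the IL-1 receptor and was lower with Dex, from 7.90, 7.83 and 7.67 log2 CPM to 7.0, 6.92 and 6.73 (change -0.92 ± 0.032, limma adjusted p = 1.04e-08). Il10, which restrains macrophages, was higher, from 6.49, 6.45 and 7.39 to 7.65, 7.49 and 8.22. The Il10 groups did not overlap, and the level was 2.02-fold higher (change 1.01 ± 0.053, limma adjusted p = 1.82e-07). The other cytokine that rose was Edn1, the vasoconstrictor peptide endothelin-1, at 2.49, 1.83 and 1.63 with LPS and 4.79, 4.0 and 3.46 with LPS + Dex (change 2.10 ± 0.097, limma adjusted p = 7.19e-08).

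Of 17 chemokine genes measured, 9 were called lower (52.9%) and 2 higher (11.8%), against 7.44% and 5.94% of all genes. The median was -0.20, and no member was lower by more than 2-fold. Ccl2, which attracts monocytes, was at 7.90, 7.16 and 6.88 with LPS and at 7.16, 6.40 and 5.84 with LPS + Dex. The groups overlapped because mouse A had the highest level in both, while every mouse fell (change -0.85 ± 0.053, limma adjusted p = 7.92e-07). Cxcl10, an interferon-dependent chemokine, went from 8.44, 7.99 and 7.88 to 7.62, 7.22 and 7.02 without overlap (change -0.82 ± 0.033, limma adjusted p = 2.80e-08). Ccl3, Ccl4 and Ccl7 changed by -0.74, -0.54 and -0.57. In contrast the neutrophil chemokine Cxcl1 was not lowered: it was at 8.68, 8.65 and 8.69 with LPS and at 8.85, 8.71 and 8.76 with LPS + Dex (change 0.10 ± 0.032, limma adjusted p = 0.0825).

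Of 28 genes of the NF-kB system itself, 16 were called lower (57.1%) and 2 higher (7.14%), against 7.44% and 5.94% of all genes. Their median was -0.17. The subunit genes Rela, Nfkb1, Nfkb2, Rel and Relb were among the lower, with changes of -0.12 to -0.29. Larger decreases were seen for regulators: Tnip3, an inhibitor of the pathway (-0.79 ± 0.034, limma adjusted p = 4.72e-08), Malt1, a protease of the activating complex (-0.66 ± 0.052, limma adjusted p = 4.92e-06), and the nuclear inhibitor homologues Nfkbid (-0.54) and Nfkbiz (-0.31). Nfkbia and Tnfaip3, which encode the main inhibitors IkBα and A20, were not called. Of the upstream TLR4 pathway genes, 5 of 25 were called lower and 5 higher, with a median of -0.01. The adaptors Ticam2 and Ticam1, which act in the branch toward interferon, fell by 0.57 and 0.28. The LPS coreceptor Cd14 was at 10.79, 10.78 and 10.71 with LPS and slightly higher at 10.97, 10.95 and 10.99 with LPS + Dex (change 0.21 ± 0.035, limma adjusted p = 0.00154), and Tlr7 rose by 0.41.

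AP-1 and other immediate-early genes split. Of 31 measured, 20 were called lower (64.5%, against 7.44% of all genes) and 4 higher (12.9%, against 5.94%), with a median of -0.28. Ier3, a stress-response gene, went from 7.15, 7.16 and 7.84 to 5.88, 5.94 and 6.28 (change -1.35 ± 0.055, limma adjusted p = 3.16e-08). Atf3, itself a repressor of inflammatory genes, fell in every mouse, although its groups overlapped (8.52, 7.93 and 9.14 with LPS against 7.55, 6.96 and 8.22, change -0.95 ± 0.031, limma adjusted p = 6.75e-09). The antiproliferative genes Btg1 and Btg2 fell by 0.60 and 0.55 and Myc by 0.46. Within AP-1 the partners went in different directions. Fos was 8.05, 7.87 and 8.48 with LPS and 8.60, 8.37 and 9.06 with LPS + Dex (change 0.54 ± 0.032, limma adjusted p = 4.50e-07), and Jun rose by 0.52, whereas Fosb changed by -1.19, Junb by -0.52 and Fosl2 by -0.28.

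Feedback regulators of MAP kinases were called in both directions. Dusp1 was at 10.04, 9.35 and 9.97 log2 CPM with LPS and at 10.90, 10.38 and 10.87 with LPS + Dex. It was thus raised 1.91-fold on top of its response to LPS, without overlap of the groups (change 0.93 ± 0.038, limma adjusted p = 3.02e-08). Dusp6 (0.51) and Dusp2 (0.32) also rose. Dusp4 (-1.15), Dusp5 (-0.51), Dusp8 (-1.22) and Errfi1, an inhibitor of EGF receptors (-0.64), fell, so that of 16 such genes 8 were called lower and 5 higher. Of 21 regulators of mRNA decay, 2 were lower (9.52%, against 7.44% of all genes) and 4 higher (19.0%, against 5.94%), with a median of 0.00. Zfp36, which encodes the mRNA-destabilising protein tristetraprolin, was at 10.75, 10.47 and 11.30 with LPS and at 10.06, 9.90 and 10.65 with LPS + Dex (change -0.63 ± 0.034, limma adjusted p = 2.54e-07). The RNase gene Zc3h12a rose by 0.37 and the relatives Zfp36l1 and Zfp36l2 of Zfp36 by 0.41 and 0.29.

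In several other groups most genes were not called, but the shares called lower were above the 7.44% of all genes. In the prostaglandin pathway 4 of 15 genes were lower (26.7%). Besides Ptgs2 these were the synthase Ptges (-0.37) and the receptors Ptger4 (-0.37) and Ptgir (-0.41). Among 35 interferon regulatory and stimulated genes, 10 were lower (28.6%) and 3 higher (8.57%, against 5.94% of all genes), with a median of -0.02. Irf1 went from 8.33, 8.25 and 8.66 to 7.68, 7.54 and 7.62 (change -0.81 ± 0.060, limma adjusted p = 3.20e-06), and Ifit1 fell by 0.37. Of 25 costimulatory, adhesion and scavenger molecules 7 were lower and 4 higher. The dendritic cell and macrophage activation marker Cd83 was at 7.96, 8.30 and 8.70 with LPS and at 6.79, 7.15 and 7.45 with LPS + Dex, 2.28-fold lower without overlap (limma adjusted p = 1.74e-09). Cd44 fell by 0.30. Among 19 genes of SOCS, JAK and STAT proteins 3 were lower (15.8%), all of them SOCS genes. Socs3, the inhibitor of IL-6 receptor signalling, fell by 0.53 (limma adjusted p = 5.81e-05).

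Metabolic and cell cycle genes were mostly not called. Of 26 hypoxia and glycolysis genes 6 were lower (23.1%, against 7.44% of all genes) and 1 higher (3.85%, against 5.94%). Hilpda, a lipid droplet protein gene, was lower, from 6.35, 6.45 and 5.98 to 5.72, 5.88 and 5.08 (change -0.70 ± 0.058, limma adjusted p = 7.39e-06), and the glucose transporter gene Slc2a1 fell by 0.47. Of 32 cell cycle genes 3 were lower, which at 9.38% is near the 7.44% of all genes, with changes of -0.14 for Mki67, -0.21 for Pcna and -0.22 for E2f2. Of 25 genes that encode GR, its chaperones and its cofactors, 3 were lower (12%, against 7.44% of all genes) and 1 was higher (4.0%, against 5.94%), close to the shares over all genes. Nr3c1 itself was at 6.48, 6.69 and 7.16 with LPS and at 6.34, 6.47 and 6.98 with LPS + Dex, a decrease within 1 hr of 1.13-fold (change -0.18 ± 0.035, limma adjusted p = 0.00541). The coactivator gene Ncoa3 and the chaperone gene Hsp90aa1 fell by 0.14 and 0.13.

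**Figure D3:**
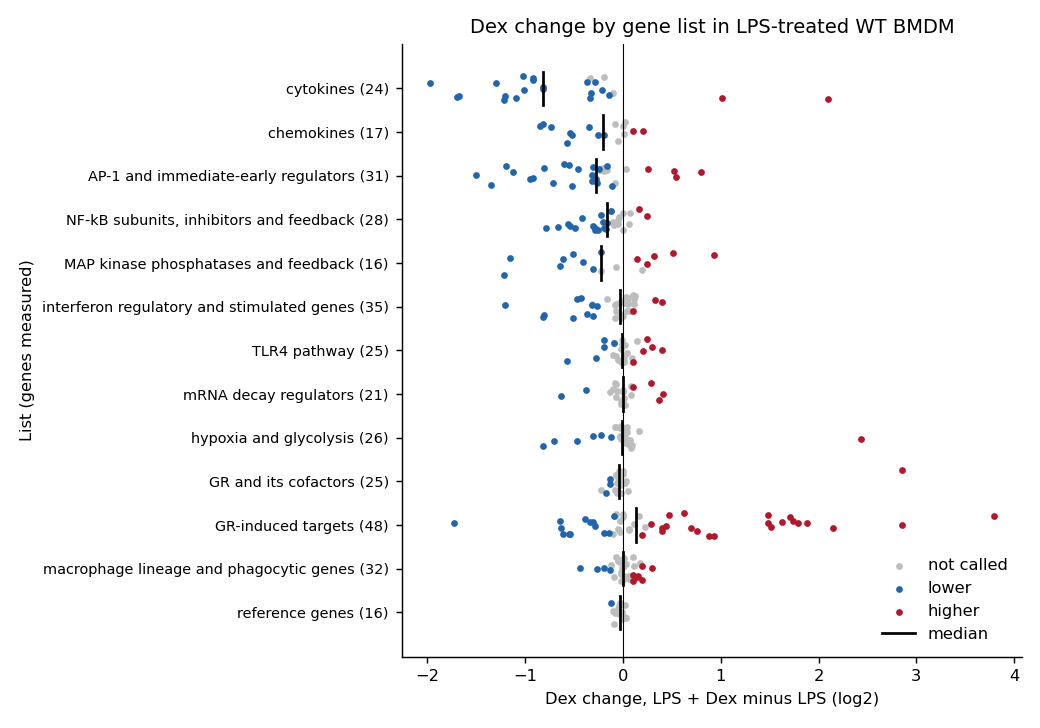
Dex change (x axis, log2) of each measured member of 13 gene lists (y axis, number of genes measured in parentheses), in blue where called lower, in red where called higher and in grey where not called, with the median as a black bar. Cytokine genes lie furthest to the left, with a median of -0.82, whereas the GR-induced targets spread from -1.73 to 3.80.

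The raised genes were led by Fzd4, a receptor for Wnt and Norrin that was close to the lower end of detection without Dex. It was at -0.94, -1.36 and -2.08 log2 CPM with LPS and at 3.57, 3.35 and 2.82 with LPS + Dex, with 7 reads in the lowest library. The 26.1-fold increase therefore rests on few reads in the LPS group, but all 3 mice showed it (changes of 4.51, 4.71 and 4.90, limma adjusted p = 1.04e-08). Tsc22d3, which encodes GILZ, an inhibitor of NF-kB and AP-1, was at 4.05, 3.76 and 3.92 with LPS and at 7.67, 7.49 and 7.96 with LPS + Dex. This was a 13.9-fold rise with an error small against its size (change 3.80 ± 0.067, limma adjusted p = 5.07e-11). Fkbp5, the co-chaperone that lowers the affinity of GR for its ligand, went from 4.13, 3.68 and 3.35 to 6.61, 6.53 and 6.59. Its level with Dex was nearly equal in the 3 mice, although the levels without Dex differed (change 2.86 ± 0.11, limma adjusted p = 1.59e-08).

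A GR core motif was found in the promoter windows of the 2 genes with the largest increases. In Fzd4 (chr7:89404116-89404415, plus strand) it lay at 15 bases after the start, and in Tsc22d3 (chrX:140600473-140600772, minus strand, the farthest upstream of its 3 windows) at -185. In Tsc22d3 the match is on the opposite strand and is printed as its reverse complement.
Fzd4: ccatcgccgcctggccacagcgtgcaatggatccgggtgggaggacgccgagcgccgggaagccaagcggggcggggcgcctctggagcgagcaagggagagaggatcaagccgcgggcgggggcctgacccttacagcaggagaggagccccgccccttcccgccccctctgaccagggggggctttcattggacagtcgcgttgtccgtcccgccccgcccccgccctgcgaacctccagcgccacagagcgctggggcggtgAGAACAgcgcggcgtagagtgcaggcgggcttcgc
Tsc22d3: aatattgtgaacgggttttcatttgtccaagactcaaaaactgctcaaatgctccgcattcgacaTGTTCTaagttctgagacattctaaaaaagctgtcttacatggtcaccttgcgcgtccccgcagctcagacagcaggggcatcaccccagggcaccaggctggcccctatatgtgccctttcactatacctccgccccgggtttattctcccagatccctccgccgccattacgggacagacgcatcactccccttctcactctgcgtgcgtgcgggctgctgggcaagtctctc
The windows held for Fkbp5, Il15ra, Pfkfb3, Per1, Edn1 and Cytip, which are also among the 10 largest increases, and the other 2 windows of Tsc22d3 did not hold the core motif. It is common, as given above, and the windows printed here for Fzd4 and Tsc22d3 did not hold the palindromic GR element, which was found in 0.19% of all windows.

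Several strongly raised genes encode regulators of metabolism, kinase signalling and the clock. Pfkfb3, whose product makes the activator of the glycolytic enzyme phosphofructokinase, had the smallest p of all genes. It was at 6.65, 6.77 and 7.29 with LPS and at 9.06, 9.14 and 9.80 with LPS + Dex, 5.39-fold higher (change 2.43 ± 0.035, limma adjusted p = 1.21e-11). It was also the only gene of the hypoxia and glycolysis list that rose. Sik1, a salt-inducible kinase, went from 4.01, 4.22 and 5.05 to 6.23, 6.31 and 7.20 (change 2.15 ± 0.043, limma adjusted p = 1.01e-10). Per1, a component of the circadian clock, went from 5.72, 5.50 and 6.34 to 7.79, 7.93 and 8.27 (change 2.15 ± 0.072, limma adjusted p = 9.10e-09). Il15ra, the receptor chain that presents IL-15, rose by 2.63, and Cytip, a regulator of adhesion through cytohesins, by 1.98. Prss16, a serine protease gene, was the least regular of the 10, at 1.62, 1.20 and 0.10 with LPS and 4.65, 2.86 and 3.81 with LPS + Dex (change 2.80 ± 0.28, limma adjusted p = 3.02e-05).

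Genes listed as GR targets did not all rise. Of 48 measured, 22 were called higher (45.8%, against 5.94% of all genes) and 13 lower (27.1%, against 7.44%), with a median of 0.14. Besides Tsc22d3, Fkbp5 and Per1, the raised targets included Klf9 (1.88), Map3k6 (1.70), the mTOR inhibitor Ddit4 (1.62), the metallothioneins Mt2 (1.52) and Mt1 (0.76), Klf4 (1.49) and Pik3r1, a PI3 kinase subunit (0.88). The lower targets included Gadd45a (-1.73), Errfi1 (-0.64), Zfp36 (-0.63), Rgs2 (-0.61), Gadd45b (-0.55) and Bcl6 (-0.54). The kinase gene Sgk1 and the annexin gene Anxa1, both widely used as GR targets, were not called. The list was put together from general knowledge of GR targets with earlier results of these data known.

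To relate the Dex changes to LPS, genes were sorted by their LPS response in the KO libraries, because the WT LPS libraries are part of the Dex comparison. At an adjusted p under 0.1 and over 1.5-fold, 431 genes were LPS-induced in the KO cells, 247 were lowered and 8936 were neither. Of the 431 induced genes, 263 were called lower with Dex in WT (61.0%) and 65 higher (15.1%). Of the 247 genes that LPS lowered, 13 were lower with Dex (5.26%) and 46 higher (18.6%). Of the remaining 8936, 439 were lower (4.91%) and 460 higher (5.15%). The share called lower was 8.57% of the 70 genes with an LPS change under -1, 5.56% of the 288 genes at -1 to -0.5 and 2.21% of the 4616 genes at -0.5 to 0. It was then 7.34% for 0 to 0.5, 48.2% for 0.5 to 1, 61.6% for 1 to 2, 61.0% for 2 to 3 and 74.7% of the 75 genes over 3. The share called higher was 30.0% of the 70 genes with an LPS change under -1 and 11.6 to 20.3% in the bins above 0.5, against 4.70 to 5.29% in the bins on either side of 0. Of the genes over 1.3-fold lower with Dex, 67.0% were LPS-induced and 28.7% were neither induced nor lowered. Of those over 1.3-fold higher, 15.7% were LPS-induced, 12.2% lowered by LPS and 72.1% neither.

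**Figure D4:**
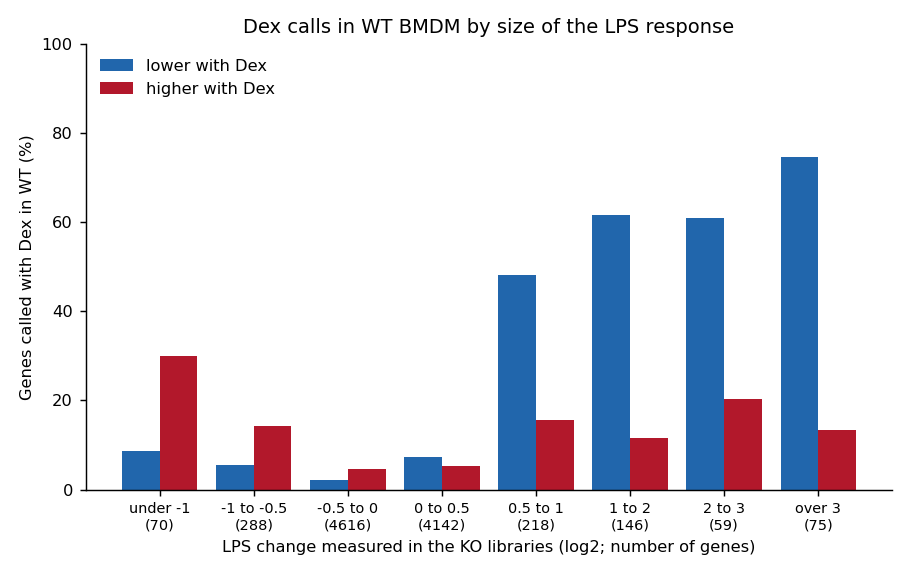
Share of genes called lower (blue) or higher (red) with Dex in WT BMDM (y axis, %) in bins of the LPS change measured in the KO libraries (x axis, log2, with the number of genes). The share called lower is 8.57%, 5.56% and 2.21% in the 3 bins under 0 and then goes from 7.34% to 74.7%, and the share called higher is 30.0% in the bin under -1.

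Dex thus also lowered genes that were not called LPS-induced in the KO cells. The 5 largest decreases of this kind were Enc1, Rhov, Nr1d1, Mylip and Gadd45g. Enc1, an actin-binding protein gene, was at 4.92, 5.42 and 5.18 with LPS and at 3.87, 4.07 and 4.10 with LPS + Dex, 2.24-fold lower without overlap (limma adjusted p = 3.02e-07), while its LPS change in the KO cells was -0.10. Nr1d1, the heme-binding clock repressor REV-ERBα, was at 3.19, 3.26 and 3.60 with LPS and at 2.13, 2.36 and 2.53 with LPS + Dex (change -1.01 ± 0.084, limma adjusted p = 7.54e-06). Mylip, the ubiquitin ligase that degrades the LDL receptor, was at 6.73, 6.77 and 6.35 with LPS and at 5.85, 5.96 and 5.33 with LPS + Dex (change -0.90 ± 0.044, limma adjusted p = 1.08e-07). Rhov and Gadd45g had been lowered by LPS (-1.69 and -1.41 in the KO cells) and were further lowered with Dex, by 1.02 and 0.75. In the WT libraries Rhov, Gadd45g and Mylip were in neither LPS class (LPS changes of -2.01, -2.11 and 0.715, limma adjusted p = 0.101, 0.131 and 0.276).

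Some genes that were LPS-induced in the KO cells were higher with Dex in WT, and the 5 largest increases of this kind were Prss16, Edn1, Sphk1, Sele and Nfil3. In the WT libraries LPS induced Edn1 and Sele, whereas Prss16, Sphk1 and Nfil3 were in neither LPS class there (LPS changes of -0.10, -0.20 and 0.92, limma adjusted p = 0.911, 0.758 and 0.215). The WT fit called 328 genes LPS-induced, against 431 in the KO fit, so a gene in neither class there may still respond to LPS. Sele encodes the adhesion molecule E-selectin. With Dex added it went from 1.26, 1.72 and 1.34 log2 CPM to 3.42, 3.06 and 3.03 in the WT cells (change 1.74 ± 0.14, limma adjusted p = 5.77e-06). The transcription factor gene Nfil3 was at 4.57, 4.70 and 5.02 with LPS and at 6.34, 6.20 and 6.73 with LPS + Dex (change 1.66 ± 0.053, limma adjusted p = 5.81e-09). Sphk1, the kinase that makes sphingosine-1-phosphate, rose by 1.74. Cxcl10, Cd40, Trim13 and Tnfsf9 are among the genes that the study follows, and it names them as LPS-induced but insensitive to Dex. The study made that call on fewer replicates. Of these genes Cxcl10 fell here by 0.82, as given above, which is 1.76-fold and over the 1.3-fold threshold. Cd40, a costimulatory receptor with an LPS change of 1.84 in the KO cells, was at 5.12, 4.70 and 4.90 with LPS and at 5.06, 4.37 and 5.07 with LPS + Dex (change -0.07 ± 0.078, limma adjusted p = 0.728). Trim13, a ubiquitin ligase gene, had a change of -0.04 ± 0.089 (limma adjusted p = 0.893). Tnfsf9, the ligand of 4-1BB, had an LPS change of 7.11 and a Dex change of -0.14 ± 0.038 (limma adjusted p = 0.0364).

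Genes changed by Dex had a lower median number of exons in their longest transcript, and the shorter span was clearest for the lowered genes. Genes over 1.3-fold lower spanned a median of 13.3 kb in GENCODE vM21 (98.1% of the set matched), against 20.9 kb for those over 1.3-fold higher (96.5% matched) and 24.5 kb for all genes (95.8%). The longest transcript had a median of 5 exons in both changed groups and 8 over all genes. This transcript had 1 or 2 exons for 27.3% of the lower, 19.9% of the higher and 10.8% of all genes. It is the transcript with the most exonic bases and need not show the full structure of a gene. That of Malt1, for example, has 1 exon of 6404 bases in a gene that spans 48130 bases. The shares are therefore not shares of genes with 1 or 2 exons. Ch25h is an example with 1 exon in 1387 bases (chromosome 19, 34473778 to 34475164, minus strand). These are descriptions without a test.

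The 6 LPS and LPS + Dex libraries of the 3 KO mice came from animals that had no part in the WT calls, although 1 of them shares its label tag with mouse C. In the KO mice LysM-Cre removes a floxed exon of Nelfb in myeloid cells. Nelfb was at 3.27 to 4.22 log2 CPM in their libraries and at 5.59 to 5.76 in the WT libraries of this comparison, where it was not called with Dex (change 0.01 ± 0.040, limma adjusted p = 0.943). In the KO cells 747 genes were called lower with Dex (7.77% of genes tested) and 765 higher (7.96%). Of the 715 genes lower in WT, 501 were called lower in the KO cells (70.1% of the WT list and 67.1% of the KO list) and 600 fell in all 3 KO mice, while 7 were called higher. Of the 571 genes higher in WT, 462 were called higher in the KO cells (80.9% of the WT list and 60.4% of the KO list), and 1 was called lower. Among changes over 1.3-fold in WT, 206 of 209 lower and 214 of 229 higher genes were called in the same direction. The sizes were similar, with a median of -0.57 in WT and -0.59 in the KO cells for the 209, and 0.61 and 0.68 for the 229. When the KO fit alone lacked the mouse block, it called 10.2% of the 715 and 19.1% of the 571 in the same direction.

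**Figure D5:**
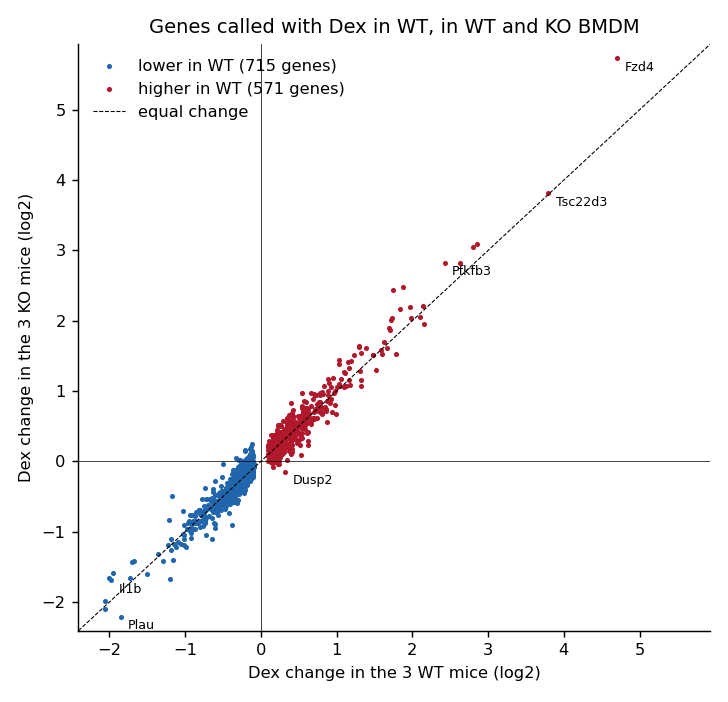
Dex change of the genes called lower (blue) or higher (red) in WT, in the 3 WT mice (x axis, log2) and in the 3 KO mice (y axis, log2), with a dashed line of equal change. Most points lie near the line; Dusp2, at 0.32 in WT and -0.15 in the KO cells, lies below 0 on the y axis.

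A difference between the genotypes was found for 2 genes in the test of the difference itself, an interaction term over the 12 LPS and LPS + Dex libraries at an adjusted p under 0.1. Dusp2, a nuclear phosphatase of MAP kinases, rose with Dex in the WT mice, by 0.34, 0.32 and 0.31, and was lower with Dex in the KO mice, with changes of -0.23, -0.11 and -0.10. The difference was 0.47 ± 0.048 (limma adjusted p = 0.00452). Its level with LPS also differed, at 7.20, 6.48 and 7.88 log2 CPM in the WT and 8.30, 8.29 and 8.41 in the KO mice. Pfkfb3 rose in both genotypes and more in the KO mice, by 2.75, 2.81 and 2.91 against 2.42, 2.37 and 2.51 in the WT (difference -0.40 ± 0.055, limma adjusted p = 0.0539).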

How the data were processed

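The sources state how the files were made. Poly(A) RNA of each library was sequenced as read pairs, which the authors mapped to mm10 with CLC Bio Genomic Workbench. Reads unique to exons were tallied for every gene by the authors, who used edgeR to normalise the tallies (weighted trimmed mean) and deposited log2 CPM for 9614 genes. The submitters' processing notes also name CASAVA 1.8 and FastQC. Further versions and the filter that left these genes are not given in the sources used here. Columns with the authors' own p-values and FDR were not used, and 0 columns of per-sample values were left unused.

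Deposited log2 values were fitted without a pseudocount or filter in limma 3.58.1 (R 4.3.3; lmFit, eBayes with a mean-variance trend), with the mouse as a block and Benjamini-Hochberg adjustment over all 9614 genes; descriptions used Python 3.11.15. With 6 libraries the residual degrees of freedom were 2, and the prior degrees of freedom 8.77. A call was an adjusted p under 0.1. LPS classes came from a like fit of 8 KO libraries, and the WT and KO difference from 12 libraries. Mouse numbers in the labels pair the libraries, and deviations from the group means correlated across genes with r = 0.94, 0.88 and 0.94 in mice A, B and C. Depth was recovered from equal steps in values under 3 CPM, 100% of which were whole reads within 0.1, and it covers counting error only; 3 reads corresponded to 0.0703 to 0.1 CPM in the WT LPS and LPS + Dex libraries. Gene positions are from GENCODE vM21 (GRCm38) and promoter windows from RefSeq, matched by symbol for 77.0% of genes.

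The genes and lists were chosen with earlier results of these data known. The text names the 10 largest decreases and increases among called genes with 1 sign in 3 mice and a mean above 0 log2 CPM, the 5 largest decreases not induced by LPS and 5 largest increases induced by it, up to 4 members per list with the smallest p, genes the study follows (Tnf, Il1a, Il1b, Ccl2, Lif, Btg2, Hilpda, Cd83, Cxcl10, Cd40, Tnfsf9, Trim13 and Myc), and Nelfb and Nr3c1. Other genes were named after their values were seen. Alternatives were the fit without the block, all 12 libraries, no variance trend, a level filter, log2(CPM + 1), centring, voom on recovered reads, other thresholds, the LPS class from WT libraries and leaving out each mouse.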

Additional observations from a re-analysis of the deposited data

Results flagged for a closer look

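The Dex change differed between WT and NELF-B KO cells for 2 of 9614 genes at an adjusted p under 0.1 in limma's interaction test over 12 libraries. For Dusp2 the WT minus KO difference was 0.468 on the log2 scale (limma adjusted p = 0.00452), with an increase in 3 of 3 WT mice and a decrease in 3 of 3 KO mice. For Pfkfb3 it was -0.395 (limma adjusted p = 0.0539), with an increase in all 6 mice. A search for samples far from their group was not made, because groups of 3 are not tested for it.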

How the results depend on the processing

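The numbers of genes called depended mainly on the replicate block. Without it 28 genes were called lower in place of 715 and 44 higher in place of 571, all of them among the calls with the block. The share of LPS-induced genes called lower was then 6.3% in place of 61.0% and called higher 1.4% in place of 15.1%. When the KO fit alone lacked the block, it called 10.2% of the 715 and 19.1% of the 571 in the same direction. Of 105 named genes, 63 were no longer called without the block and 1, E2f2, in the fit of all 12 libraries. Without the variance trend 12 lost their call (Ncoa3, Hsp90aa1, Ptges, Socs5, Socs7, Mki67, E2f2, Gapdh, Csf3r, S100a8, Blnk and Tnfsf9). The change itself is the same in these fits by construction, so its direction could not differ. Stricter thresholds gave 102 lower and 121 higher genes (unadjusted p under 0.01, over 1.5-fold) and 209 and 229 (adjusted p under 0.1, over 1.3-fold). The other alternatives gave 513 to 936 lower and 471 to 673 higher genes, with 0 calls in the opposite direction; voom in limma on the recovered reads gave 751 and 596. Leaving out each mouse in turn gave 535 to 936 lower and 504 to 673 higher genes, 57.8 to 62.9% of LPS-induced genes lower and 14.8 to 15.5% higher. Among named genes, Tnfsf9 (-0.09), Ncoa3 (-0.11) and S100a8 (0.17) were no longer called without mouse C, Hsp90aa1 (-0.14) and Socs5 (-0.20) without mouse A, Gapdh (-0.08) without mouse B, Blnk (-0.11 and -0.10) and E2f2 (-0.23 and -0.14) without mouse A or C, and Socs7 (-0.13 and -0.15) without mouse A or B. Hspa1a and Hspa1b are near-identical copies, and reads that match both may be missing because only unique reads were tallied.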

Other observations

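Further gene groups were looked at after values had been seen, so their counts are descriptions and no test of the groups was made. They are read against 7.44% of all genes called lower and 5.94% called higher. Of 17 circadian clock genes, 3 were lower (Nr1d1, Bhlhe40 and Bhlhe41, with changes of -1.01, -0.74 and -0.48) and 3 higher (Per1, Nfil3 and Per2, with 2.15, 1.66 and 0.35). The activators Arntl and Clock were not called. Of 10 Kruppel-like factors, a family of zinc finger transcription factors, 4 were higher and 4 lower. Klf9 was at 2.13, 2.10 and 1.3 log2 CPM with LPS and at 3.88, 4.0 and 3.28 with LPS + Dex, a 3.68-fold rise without overlap of the groups (limma adjusted p = 7.18e-08). Klf4 rose by 1.49, Klf2 by 0.63 and Klf13 by 0.53, whereas Klf7, Klf11, Klf10 and Klf6 changed by -0.63, -0.40, -0.31 and -0.31.

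Among 18 genes of the BCL2 family, which control apoptosis, Bmf (1.32), Bcl2l1 (0.61) and Pmaip1 (0.38) were higher and Bcl2l11 (-0.51) and Bbc3 (-0.48) lower. Bmf promotes and Bcl2l1 (BCL-XL) prevents cell death, so that genes of opposite function rose together. Bmf was at 2.12, 2.47 and 2.92 log2 CPM with LPS and at 3.51, 3.85 and 4.12 with LPS + Dex (limma adjusted p = 4.58e-07). Of 23 heat shock chaperone genes, 4 were lower and 2 higher. The 2 largest changes were those of the near-identical genes Hspa1a (-1.17) and Hspa1b (-1.03). These values are uncertain, because only unique reads were tallied and reads that match both copies may be missing. Hspa1a fell by 0.97, 0.52 and 2.03 in the 3 mice, with 13 reads in its lowest library. Of 13 genes of the SIK, PIM, PFKFB, SGK and related kinases, 4 were higher and 2 lower, with Pim1 at -0.80 beside Sik1 at 2.15.

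Large families told apart by symbol gave low counts for housekeeping genes. Of 77 ribosomal protein genes 1 was called, and of 43 genes of respiratory complex I 1 was called. Of 182 zinc finger genes named Zfp, 12 were lower and 26 higher (14.3%), with a median change of 0.07 against -0.01 over all genes. Of 165 solute carrier genes, 19 were lower (11.5%) and 8 higher.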
